A study of Mus musculus with 12 samples.

Results

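The odorant receptor (OR) genes of mouse chromosome 16 numbered from Olfr164 to Olfr209 were measured in the main olfactory epithelium (MOE) after unilateral naris occlusion (UNO). Members were genes in this range of numbers with a probe set annotated to a single symbol of the Olfr series, without a pseudogene suffix. This gave 31 genes of the 1015 OR genes with such a probe set, and each of them was read by 1 probe set. All 31 had a mean log2 value above 5, the limit for low values, as did 984 OR genes in all. A further 4 probe sets carried several symbols of this stretch (Olfr171/Olfr170/Olfr169, Olfr194/Olfr203, Olfr204/Olfr206/Olfr205 and Olfr209/Olfr208). They are described beside the members but not counted among them.

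In UNO the right nostril is sealed by electrocautery, so that little air and odor reach the MOE behind it (the closed side), while the MOE of the other nostril (the open side) keeps its airflow. The nostril was sealed at 14 days of age, closure lasted 3 weeks, and the MOE of each side was taken at 5 weeks by the sample titles, although a separate age tag reads 6 months. The 12 Affymetrix Mouse Gene ST arrays fall into 4 groups of 3, the open side of wild type (WT) mice, their closed side, and both sides of H2be-KO mice (KO). In KO mice the coding sequence of H2be, a histone H2B variant of olfactory neurons, was replaced throughout the body by one for a membrane-directed mCherry. All 4 groups come from mice with an occluded naris, so the open side is not an unoperated control. By the design description each sample pooled tissue of 2 mice, 1 of each sex. The study's figure legends for the UNO arrays instead give 4 animals per sample. The labels do not state whether open and closed samples with the same replicate number came from the same mice.

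Each olfactory sensory neuron (OSN) chooses a single OR gene, and a single allele of it, from a repertoire spread over many genomic clusters. The chosen receptor binds odorants in the cilia, couples to the G protein encoded by Gnal, and raises cyclic AMP through Adcy3, which opens a cyclic nucleotide-gated channel. The share of OSNs that express a given OR depends on how often it is chosen and on how long those neurons live. In whole tissue, fewer OSNs with a receptor and less of its RNA in each OSN cannot be told apart.

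RefSeq (assembly GRCm38.p6) placed all 31 members on chromosome 16, in 2 stretches separated by 39135050 bases. The proximal stretch held 7 members, Olfr164 to Olfr171, and the distal stretch held 24, Olfr172 to Olfr206. It listed 29 members as protein-coding and Olfr192 and Olfr197 as transcribed pseudogenes. Older MOR names among the RefSeq synonyms, which group receptors by protein sequence, put 8 distal members in MOR184 (Olfr172 to Olfr181 and Olfr195), 8 in MOR183 (all between Olfr183 and Olfr197), and 7 in MOR182 (Olfr198 to Olfr206). Olfr193 also carries a name of another MOR family, and Olfr192 has no MOR name. These names were read after the values were known and serve as a description.

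The MOR182 members sit next to each other at the distal end, and the results below turn on them. The opening 50 bases of the reading frame are shown in 2 sets so that the closeness of these neighbours can be seen. All are RefSeq sequence of GRCm38.p6, written in the sense of the gene, and capitals mark bases that differ from the gene named at the head of each set. In the set headed by Olfr198, Olfr201 differed at 14 of 50 bases and Olfr202 at 13.
Olfr198 (chr16:59202375-59202424, minus strand): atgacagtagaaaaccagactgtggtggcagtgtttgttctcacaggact
Olfr201 (chr16:59269616-59269665, minus strand): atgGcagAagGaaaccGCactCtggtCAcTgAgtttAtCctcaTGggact
Olfr202 (chr16:59284446-59284495, minus strand): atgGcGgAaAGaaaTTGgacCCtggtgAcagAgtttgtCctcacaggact

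In the set headed by Olfr203, Olfr194 differed at 8 of 50 bases, Olfr205 at 9 and Olfr209 at 6. Of these 4 genes, Olfr203 alone was a member, since the others were read only by probe sets with several symbols. Olfr194 also carries a MOR182 name but lies outside the run of MOR182 members, between Olfr193 and Olfr195.
Olfr203 (chr16:59303155-59303204, plus strand): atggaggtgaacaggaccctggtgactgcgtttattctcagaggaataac
Olfr194 (chr16:59120019-59120068, minus strand): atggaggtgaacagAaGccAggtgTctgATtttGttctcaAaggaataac
Olfr205 (chr16:59329458-59329507, minus strand): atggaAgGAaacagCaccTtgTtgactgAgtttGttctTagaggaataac
Olfr209 (chr16:59362167-59362216, minus strand): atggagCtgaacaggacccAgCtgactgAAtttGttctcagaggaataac

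Between the sets, genes were identical at 14 to 19 of the 50 bases, compared place by place without gaps. This count understates the likeness where like stretches are shifted, as in Olfr201, where a stretch like that of Olfr203 begins a codon later. An alignment of these 50 bases with gaps was not made. Olfr204 and Olfr206 are not shown, since no sequence was held for Olfr204 and the annotated start of Olfr206 is not the ATG. Where sequences are alike, a probe designed for one gene may also bind RNA of another, and this was not tested.

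Windows from 250 bases before to 50 bases after the RefSeq gene start were held for 22 of the 31 members. In 12 of these 22 (54.5%) the annotated start was the ATG itself, as in 685 of 944 OR genes (72.6%), so many windows lie beside the coding sequence and need not contain a promoter. Windows were searched on both strands for TAATTA (the core of homeodomain sites), TATAAA (the classical core promoter box) and CCCNNGGG (the core of Ebf sites). TAATTA and CCCNNGGG read the same on both strands, and TAATTA and TATAAA can share the letters TA where they meet. The TAATTA core was in 3 of 22 members (13.6%), 18.6% of OR genes and 5.29% of all 32851 windows. The TATAAA box was in 8 of 22 members (36.4%), 41.2% of OR genes and 13.6% of all windows, while CCCNNGGG was in 0 of 22 members, 3.07% of OR genes and 13.7% of all windows. The windows of Olfr198 and Olfr206, which rose on the closed side, are shown with these motifs in capitals.
Olfr198 (GRCm38.p6, chr16:59202375-59202674, minus strand): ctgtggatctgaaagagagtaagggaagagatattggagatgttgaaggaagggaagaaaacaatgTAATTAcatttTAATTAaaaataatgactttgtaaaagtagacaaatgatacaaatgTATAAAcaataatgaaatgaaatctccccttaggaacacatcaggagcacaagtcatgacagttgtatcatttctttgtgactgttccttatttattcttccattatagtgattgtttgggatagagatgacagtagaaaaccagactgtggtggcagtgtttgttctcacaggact
Olfr206 (GRCm38.p6, chr16:59345677-59345976, minus strand): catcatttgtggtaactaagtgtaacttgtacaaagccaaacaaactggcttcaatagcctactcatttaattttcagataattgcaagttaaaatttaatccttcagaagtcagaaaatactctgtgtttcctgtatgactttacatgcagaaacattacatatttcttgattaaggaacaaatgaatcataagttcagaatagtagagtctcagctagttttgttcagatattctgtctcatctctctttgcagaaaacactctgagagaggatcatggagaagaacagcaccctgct

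The Olfr198 window held TAATTA at 2 places and TATAAA at 1, with no overlap, and that of Olfr206 held none of the 3 motifs. A match says only that the letters are present.

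The deposited values are log2 expression values, 1 per probe set and array, and their level depends on the probes, so levels of different genes were not compared. Medians over all probe sets ran from 7.21 to 7.30 in the 12 arrays. Correlations between arrays of a group (0.9651 to 0.9778) covered much the same range as those between groups (0.9635 to 0.9775). The H2be probe set read 11.55 to 11.62 in WT open arrays and 11.31 to 11.33 in KO open arrays, and 11.68 to 11.75 against 11.41 to 11.46 on the closed side. KO arrays were thus below WT arrays on both sides without overlap, by 0.26 and 0.27 on the log2 scale. The unadjusted p-values by limma were 0.0034 and 0.0026, and those adjusted over all probe sets were 0.641 and 0.9992. Which part of the transcript these probes read is not given in the sources used here, and probes outside the replaced coding sequence would not check the labels. One array stood apart for the members: their median level was 7.81 in WT closed replicate 3 and 7.40 to 7.58 in the others, while its median over all OR genes (7.26) lay within the range of the other arrays (7.09 to 7.27).

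The first question was how the cluster responds to the loss of airflow. Averaged over both genotypes, 4 of the 31 members rose on the closed side (Olfr204, Olfr206, Olfr198 and Olfr168) and 0 fell, with p-values adjusted over all 32615 probe sets tested (limma, adjusted p under 0.05). Among all 984 OR genes, 10.1% rose and 4.88% fell by the same rule. With the adjustment made over OR genes alone, as the study's methods do for UNO, 7 members rose (Olfr165, Olfr167 and Olfr190 in addition) and 0 fell, against 16.8% and 9.45% of OR genes. At an unadjusted p under 0.05, 8 members were higher and 1 (Olfr196) was lower, 9 of 31 beside 38.4% of OR genes in either direction. Their share of rises was near that of OR genes in general, and no test of the difference was made.

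The middle of the distribution lay near 0. The median change of the 31 members was 0.04 on the log2 scale, beside 0.02 for all OR genes, and the estimates ran from -0.30 (Olfr197) to 0.71 (Olfr204). Estimates were above 0 for 16 members and below 0 for 15. The standard error of a single averaged change had a median of 0.095 among members.

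In WT mice alone, 2 members rose (Olfr204 and Olfr206), beside 3.76% of OR genes, and 0 fell, beside 1.12%. Adjusted over OR genes, Olfr168 also rose, 3 in all, beside 9.15% of OR genes, and 0 fell, beside 3.86%. In KO mice alone, 3 members rose (Olfr198, Olfr204 and Olfr206), beside 3.86% of OR genes by the adjustment over all probe sets and 8.03% by that over OR genes. None of the 31 fell in KO mice, where 1.42% and 3.96% of OR genes did by the respective adjustments. Unadjusted, 5 members had p under 0.05 in WT and 5 in KO, all higher on the closed side, beside 25.6% and 26.6% of OR genes in either direction.

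**Figure D1:**
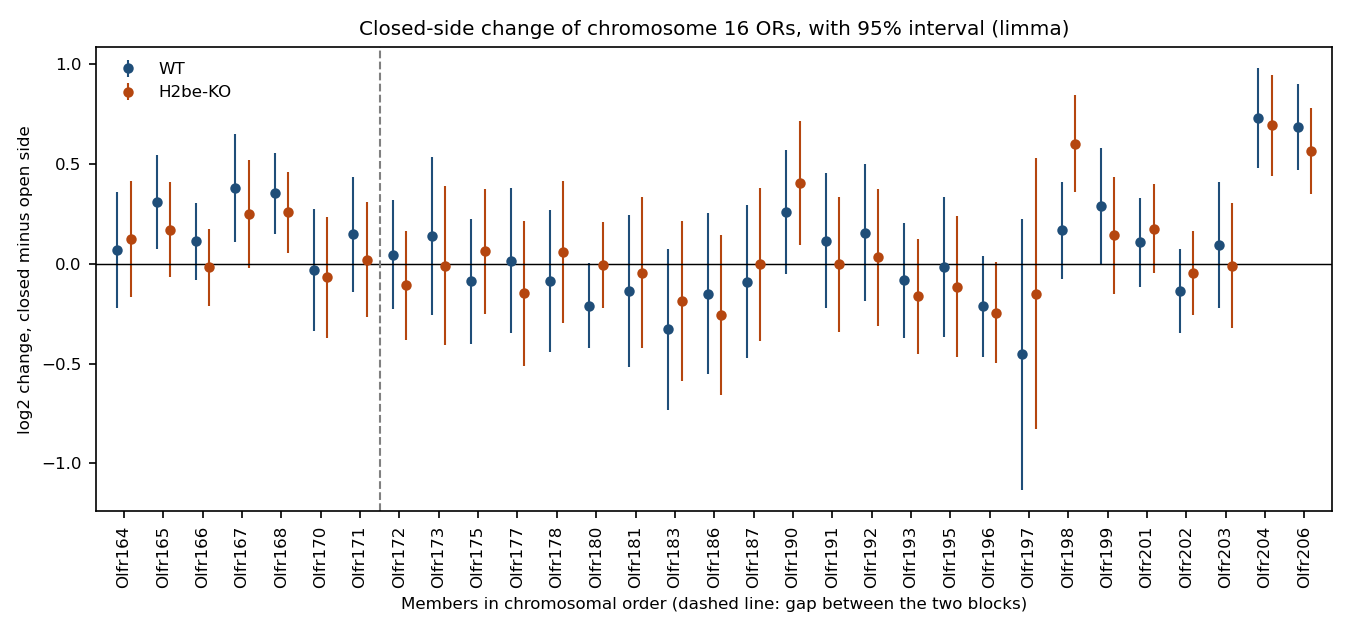
The plot gives the log2 change, closed minus open, of each of the 31 members on the y axis, with members in chromosomal order on the x axis and bars for the 95% interval of the limma fit (blue for WT, orange for H2be-KO). The dashed line separates the 7 proximal from the 24 distal members. Olfr204 and Olfr206 at the right end stand above 0.3 in both genotypes with their whole intervals, and Olfr198 does so in KO only.

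Olfr204 had the largest averaged change of any member. Here and below, values of 3 arrays are given in the order of their replicate numbers, and pairs joined by "against" give the open side first. In WT mice its log2 values were 7.60, 7.42 and 7.38 in open arrays and 8.38, 8.09 and 8.12 in closed arrays. In KO mice they were 7.40, 7.60 and 7.55 in open arrays and 8.23, 8.35 and 8.05 in closed arrays. Every closed array was thus above every open array in both genotypes. The change was 0.73 ± 0.11 (SE) in WT (1.66-fold, adjusted p = 0.013 by limma) and 0.69 ± 0.11 in KO (1.62-fold, adjusted p = 0.016). Averaged over genotypes it was 0.71 ± 0.08, with a 95% interval from 0.53 to 0.89 (adjusted p = 0.00053).

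Olfr206, an odorant receptor gene separated from Olfr204 only by Olfr205 among the annotated receptors, rose as well. Its WT values were 6.89, 7.12 and 7.04 in open arrays and 7.68, 7.61 and 7.80 in closed arrays. Its KO values were 6.75, 6.78 and 7.01 in open arrays and 7.40, 7.39 and 7.43 in closed arrays. The sides did not overlap in either genotype, and the 3 KO closed arrays lay within 0.04 of each other while below all 3 WT closed arrays. The change was 0.68 ± 0.10 (SE) in WT (1.61-fold, adjusted p = 0.0077 by limma) and 0.56 ± 0.10 in KO (1.48-fold, adjusted p = 0.021), and 0.62 ± 0.07 on average (adjusted p = 0.00045).

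The averaged calls of Olfr204 and Olfr206 held in all 12 fits that left out 1 array, with adjusted p at most 0.0026 and 0.0024. Within a genotype, the WT call of Olfr206 also held in all 12 fits (limma, adjusted p at most 0.046), while the other calls were less secure. The WT call of Olfr204 was lost without WT open replicate 3 or WT closed replicate 1 (adjusted p up to 0.076), and its KO call without KO open replicate 1 or 3 or KO closed replicate 1 or 2 (up to 0.091). The KO call of Olfr206 was lost without KO open replicate 1 or 2 or any KO closed array (up to 0.118). With only the 2 groups of a genotype in the fit, neither passed in WT (0.131 for Olfr204 and 0.113 for Olfr206) or in KO (0.071 and 0.094).

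The probe set shared by Olfr204, Olfr206 and Olfr205 rose by a smaller amount. It read 8.54, 8.48 and 8.49 in WT open arrays and 8.74, 8.74 and 8.85 in WT closed arrays. In KO it read 8.47, 8.55 and 8.28 in open arrays and 8.85, 8.88 and 8.85 in closed arrays. Open and closed arrays did not overlap in either genotype. The averaged change was 0.35 ± 0.06 (SE, limma, adjusted p = 0.0093), and the change was 0.43 in KO (adjusted p = 0.043) and 0.27 in WT (adjusted p = 0.27). This probe set and those of Olfr204 and Olfr206 name overlapping genes, so the 3 are not independent readings.

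Olfr198, the most proximal of the MOR182 members, rose in KO mice. Its KO values were 5.98, 5.83 and 6.12 in open arrays and 6.49, 6.57 and 6.68 in closed arrays. Its WT values were 6.38, 6.34 and 6.32 in open arrays and 6.58, 6.31 and 6.67 in closed arrays. The sides were apart in KO and overlapped in WT, and the KO open arrays were the lowest of all 12. The KO change was 0.60 ± 0.11 (SE, 1.52-fold, adjusted p = 0.027 by limma), the WT change 0.17 ± 0.11 (adjusted p = 0.74) and the averaged change 0.38 ± 0.08 (adjusted p = 0.022). The difference between the genotypes was 0.43, with a 95% interval from 0.09 to 0.77 (unadjusted p = 0.018, adjusted p = 0.9998), so it did not pass. The KO call was lost without KO open replicate 1 or 2 or any KO closed array (adjusted p up to 0.118), and the averaged call without KO open replicate 1 or 2, KO closed 2 or 3, WT open 1 or 3, or WT closed 1 or 3 (up to 0.064). The WT change ran from 0.09 without WT closed replicate 3 to 0.27 without WT closed replicate 2, and the limma trend and robust options ended the KO and the averaged call (0.083 and 0.082).

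Other receptors of this end did not pass by either adjustment. Olfr199 read 7.29, 7.57 and 7.57 in WT open arrays and 7.71, 7.71 and 7.86 in WT closed arrays, so the WT arrays did not overlap. In KO it read 7.51, 7.55 and 7.66 against 7.93, 7.41 and 7.81, which overlapped, and its averaged change of 0.21 ± 0.09 (SE) did not pass (limma, adjusted p = 0.35). Olfr201 read 8.07, 8.34 and 8.04 against 8.19, 8.20 and 8.38 in WT, and 8.07, 8.23 and 8.07 against 8.28, 8.27 and 8.34 in KO. The KO sides were apart and the WT sides overlapped, with an averaged change of 0.14 ± 0.07 (adjusted p = 0.45). Olfr202 and Olfr203, which lie between Olfr201 and Olfr204, had averaged changes of -0.09 ± 0.07 and 0.04, and neither passed.

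Of the 7 MOR182 members, 6 had an averaged estimate above 0, with a median of 0.21 and a range from -0.09 (Olfr202) to 0.71 (Olfr204), and 3 rose, beside 53.9% of OR genes above 0 and 10.1% that rose. Probe sets with several symbols nearby gave values in opposite directions. Olfr194/Olfr203 had an averaged change of 0.25 ± 0.07 (SE, limma, adjusted p = 0.081). Olfr209/Olfr208, the last of the stretch, read 7.32, 7.43 and 7.41 in WT open arrays and 7.12, 7.26 and 6.96 in WT closed arrays. In KO it read 7.62, 7.36 and 7.38 against 7.22, 6.96 and 7.09. Every closed array was below every open array in both genotypes, but the averaged change of -0.32 ± 0.08 did not pass (adjusted p = 0.055). RefSeq lists Olfr208 as a synonym of Olfr209.

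**Figure D2:**
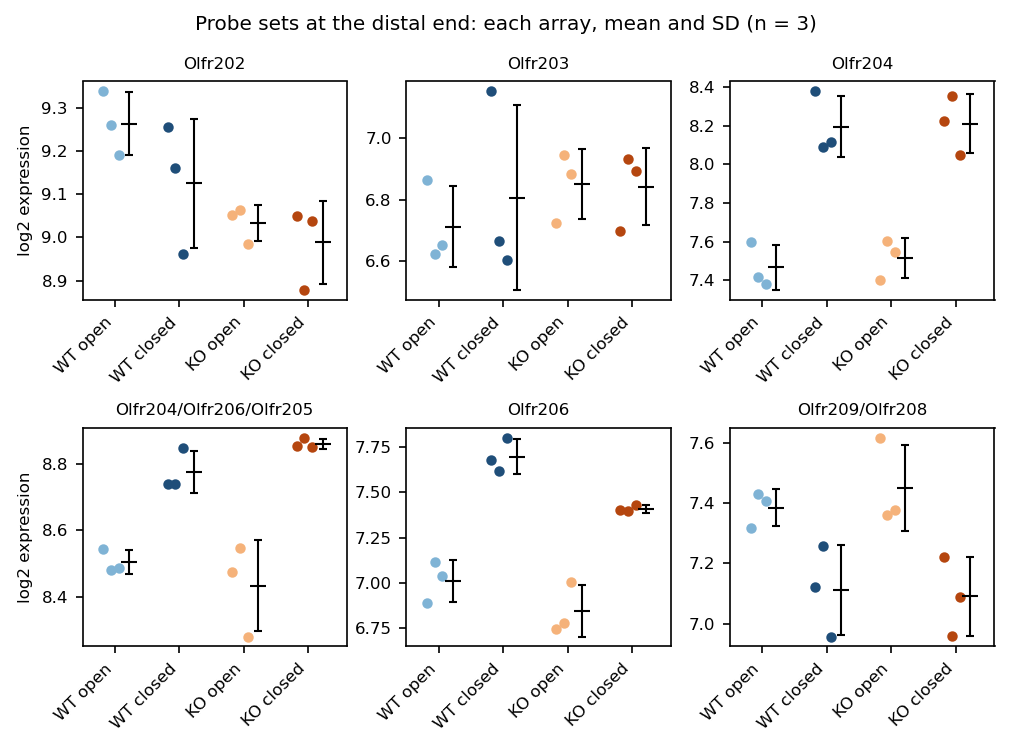
Each panel gives the log2 expression value of 1 probe set at the distal end on the y axis, with the 4 groups on the x axis, a point for each array and the mean with SD (n = 3) beside it. The y axes differ between panels and do not start at 0. Closed points lie above open points for Olfr204, Olfr206 and the probe set they share, below them for Olfr209/Olfr208, and among them for Olfr202 and Olfr203.

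The proximal stretch held smaller differences of mostly 1 direction. Olfr168, whose probe set had the highest mean of the 31, read 9.96, 9.85 and 9.76 in WT open arrays and 10.17, 10.16 and 10.30 in WT closed arrays. In KO it read 9.79, 9.93 and 9.90 in open arrays and 10.03, 10.14 and 10.23 in closed arrays. The sides were apart in both genotypes. Its averaged change was 0.31 ± 0.07 (SE, 1.24-fold, adjusted p = 0.028 by limma), with 0.35 in WT (adjusted p = 0.14, or 0.027 over OR genes) and 0.26 in KO (adjusted p = 0.32, or 0.096 over OR genes). The averaged call was kept without KO open replicate 2, KO closed replicate 1 or WT open replicate 1, and lost without any other single array (adjusted p up to 0.089). Without WT closed replicate 3 the change was 0.28 (adjusted p = 0.064). The limma trend and robust options gave a WT call (0.0089), and with the replicate number as a block in the fit the averaged call was lost (0.076).

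Olfr167, its proximal neighbour, read 8.37, 8.60 and 8.52 in WT open arrays and 8.76, 8.72 and 9.15 in WT closed arrays, and 8.29, 8.49 and 8.47 against 8.65, 8.75 and 8.60 in KO. The sides were again apart in both genotypes, and WT closed replicate 3 was the highest array. The averaged change of 0.31 ± 0.09 (SE) passed over OR genes (limma, adjusted p = 0.021) and not over all probe sets (0.093). Olfr165 read 7.74, 7.70 and 7.74 against 7.96, 7.91 and 8.24 in WT, and 7.79, 7.94 and 7.73 against 7.91, 8.13 and 7.92 in KO. The WT sides were apart and the KO sides overlapped. Its averaged change of 0.24 ± 0.08 also passed over OR genes alone (adjusted p = 0.039, and 0.16 over all probe sets).

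The other proximal members did not pass by either adjustment. Olfr164 read 6.67, 6.84 and 7.02 against 7.004, 6.77 and 6.96 in WT, and 6.66, 6.59 and 6.80 against 6.67, 6.67 and 7.07 in KO. The sides overlapped in both genotypes, and the averaged change was 0.10 ± 0.09 (SE). Olfr166 read 9.90, 9.82 and 9.74 against 9.83, 9.94 and 10.02 in WT, and 9.83, 9.998 and 9.99 against 9.90, 9.92 and 9.94 in KO. Its averaged change of 0.05 ± 0.06 had a 95% interval from -0.09 to 0.18. Olfr170 and Olfr171 had averaged changes of -0.05 and 0.08, and the probe set shared by Olfr171, Olfr170 and Olfr169 one of 0.19 ± 0.06 (limma, adjusted p = 0.20). Estimates were thus above 0 for 6 of the 7 proximal members, with a median of 0.10, beside 53.9% of all OR genes.

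**Figure D3:**
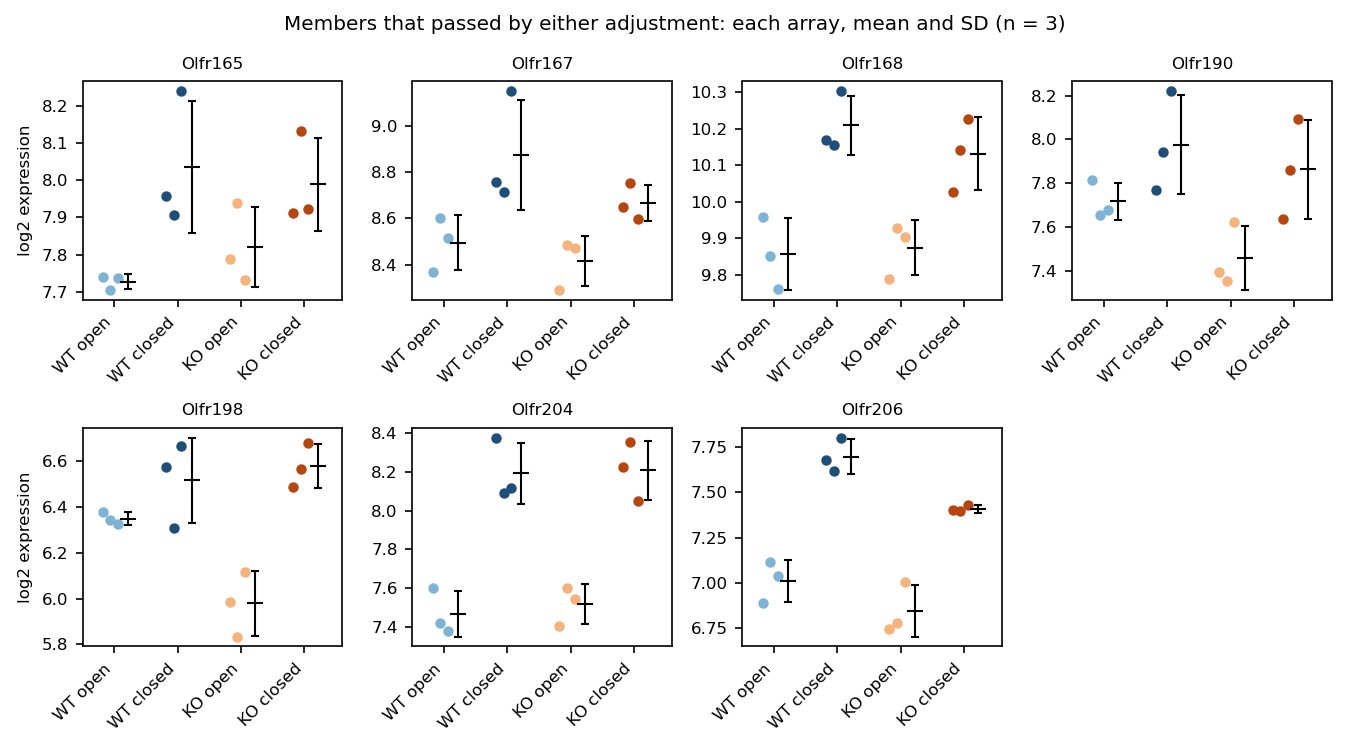
Each panel gives the log2 expression value of 1 member that passed by either adjustment on the y axis, with the 4 groups on the x axis, a point for each array and the mean with SD (n = 3). The y axes differ between panels and do not start at 0. Open and closed points are apart in both genotypes for Olfr167, Olfr168, Olfr204 and Olfr206, and in 1 genotype for Olfr165, Olfr190 and Olfr198.

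In the MOR183 group 2 of 8 members had an averaged estimate above 0, beside 53.9% of OR genes, with a median of -0.16, and none of the estimates below 0 passed. Those above 0 were those of Olfr191 (0.06) and Olfr190. The latter read 7.81, 7.66 and 7.68 in WT open arrays and 7.77, 7.94 and 8.22 in WT closed arrays, and 7.40, 7.35 and 7.62 against 7.64, 7.86 and 8.09 in KO. The KO sides were apart, by 0.01 at the nearest arrays, and the WT sides overlapped. Its averaged change of 0.33 ± 0.10 (SE) passed over OR genes (limma, adjusted p = 0.031) and not over all probe sets (0.13).

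Olfr196 was the member nearest to a call for a fall. It read 7.42, 7.56 and 7.38 in WT open arrays and 7.36, 7.21 and 7.15 in WT closed arrays, and 7.11, 7.34 and 7.34 against 7.10, 6.81 and 7.15 in KO. The WT sides were apart by 0.02 and the KO sides overlapped by 0.04. The averaged change was -0.23 ± 0.08 (SE), with adjusted p = 0.22 over all probe sets and 0.058 over OR genes (limma). Olfr183 read 7.45, 7.24 and 7.03 against 6.63, 6.81 and 7.30 in WT, and 6.65, 7.18 and 7.10 against 6.73, 6.83 and 6.82 in KO. Open and closed arrays overlapped in both genotypes, and its averaged change was -0.26 ± 0.13 (adjusted p = 0.45).

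The lowest averaged estimate of the cluster belonged to Olfr197, a transcribed pseudogene in RefSeq. It read 7.11, 6.68 and 6.38 in WT open arrays and 6.77, 6.60 and 5.43 in WT closed arrays, and 7.05, 7.45 and 7.16 against 6.99, 7.38 and 6.84 in KO. A single array, WT closed replicate 3, lay far below the rest. The averaged change was -0.30 ± 0.22 (SE, limma, adjusted p = 0.64), and -0.09 without that array. Another transcribed pseudogene, Olfr192, read 6.17, 6.16 and 5.76 against 6.13, 6.32 and 6.09 in WT, and 6.26, 6.70 and 6.60 against 6.40, 6.81 and 6.45 in KO. Its sides overlapped in both genotypes, and the averaged change was 0.09 ± 0.11.

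Estimates were smallest in MOR184. They ran, averaged over genotypes, from -0.11 (Olfr180) to 0.07 (Olfr173), 1 of 8 was above 0, beside 53.9% of OR genes, and none passed. Olfr172 read 7.20, 7.01 and 6.92 against 7.24, 7.04 and 6.99 in WT, and 7.11, 7.26 and 7.03 against 6.94, 7.26 and 6.87 in KO. Its averaged change of -0.03 ± 0.09 (SE) had a 95% interval from -0.22 to 0.16. Olfr178, whose probe set had the lowest mean, read 5.20, 5.27 and 5.29 against 5.21, 5.03 and 5.27 in WT, and 5.41, 4.97 and 4.63 against 5.20, 5.06 and 4.93 in KO. These values lie near the limit of 5 for low values, and the averaged change was -0.01 ± 0.12. The 14 members not described by array had averaged changes from -0.20 (Olfr186) to 0.08 (Olfr171), with limma adjusted p of 0.58 or more.

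Separation of the arrays can be counted without a model. Closed arrays were all above open arrays for 6 members in WT, beside 17.6% of OR genes, and for 7 in KO, beside 20.1%. They were all below for 1 member in WT (Olfr196), beside 10.4%, and for 0 in KO, beside 11.8%. In both genotypes at once, closed arrays were above for 4 members (Olfr167, Olfr168, Olfr204 and Olfr206), beside 11.8% of OR genes, and below for 0, beside 5.18%.

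**Figure D4:**
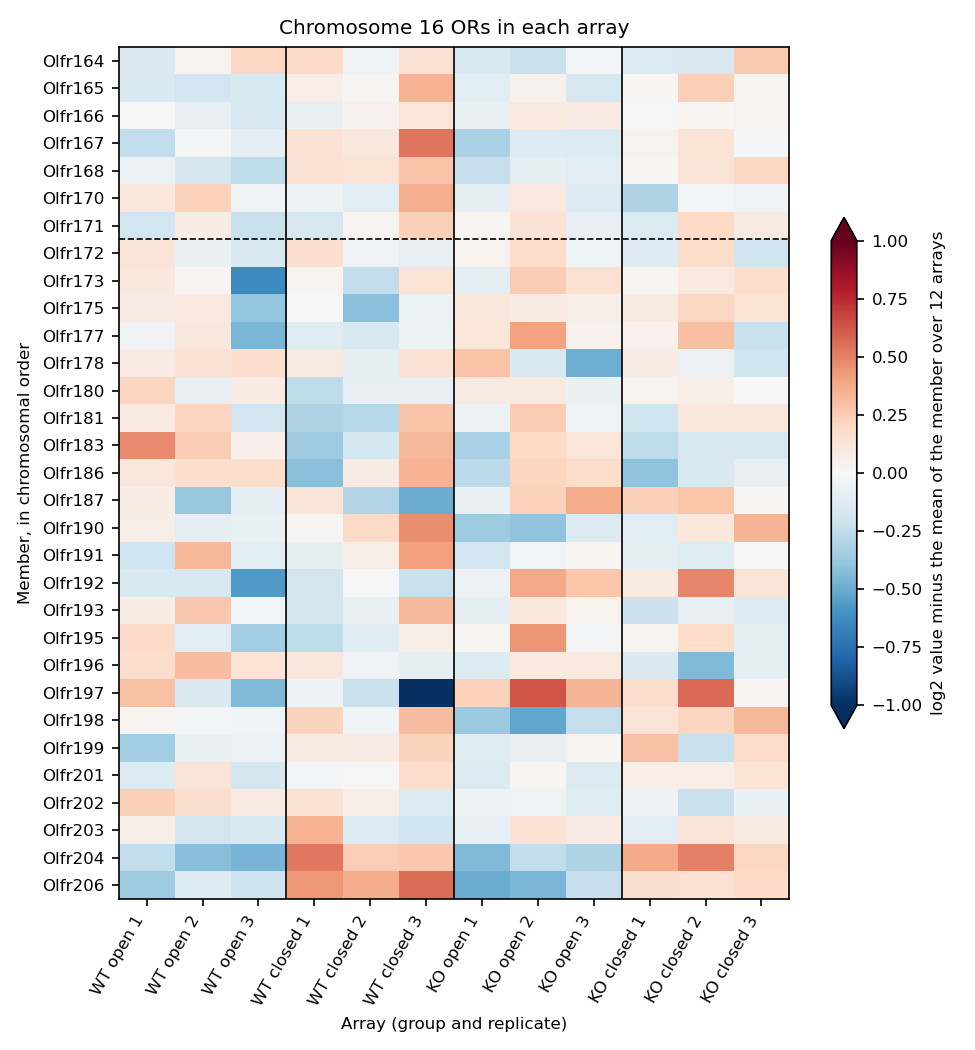
The map gives, for each of the 31 members (rows, in chromosomal order) and each of the 12 arrays (columns, by group and replicate), the log2 value minus the member's mean over the 12 arrays, from blue (lower) to red (higher). The dashed line separates the proximal from the distal stretch. The bottom 2 rows, Olfr204 and Olfr206, are red in all 6 closed columns and blue in all 6 open columns, and WT closed replicate 3 is the column with the deepest blue cell, at Olfr197.

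The second question was whether the members depend on H2be. Between KO and WT, 0 of 31 members differed on the open side and 0 on the closed side (limma, adjusted over all probe sets or over OR genes), and 0% of OR genes did by either adjustment. Over all probe sets, 0.0215% were lower in KO on the open side and 0.0245% on the closed side, and 0% were higher on either. Unadjusted, 3 members had p under 0.05 on the open side, beside 6.91% of OR genes, and 4 on the closed side, beside 6.71%. The median difference of the members, KO minus WT, was 0.02 on the open side and -0.05 on the closed side.

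Single members had low unadjusted p-values that did not survive the adjustment. On the open side, Olfr198 was lower in KO (difference -0.37 ± 0.11 (SE), unadjusted p = 0.0062, adjusted p = 0.64 by limma), and its KO and WT arrays did not overlap. Olfr192 was higher in KO on the open side (0.49 ± 0.16, unadjusted p = 0.0089) and on the closed side (0.37 ± 0.16, unadjusted p = 0.037), without overlap on either. Olfr202 was lower in KO on the open side (-0.23 ± 0.10, unadjusted p = 0.035). These are differences in log2 value, and none passed.

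On the closed side the lowest unadjusted p belonged to Olfr206, which was lower in KO (-0.29 ± 0.10 (SE), unadjusted p = 0.013, adjusted p = 0.9992 by limma). Olfr197 was higher in KO by 0.80 ± 0.31 (unadjusted p = 0.024), and by 0.39 without WT closed replicate 3, its lowest array, a fit added after seeing the data (unadjusted p = 0.108). Olfr187 was higher in KO by 0.39 ± 0.18 (unadjusted p = 0.045). KO arrays were all above WT arrays for 1 member on the open side, beside 4.37% of OR genes, and all below for 4 (Olfr190, Olfr196, Olfr198 and Olfr202), beside 7.52%. On the closed side they were all above for 4 (Olfr175, Olfr180, Olfr192 and Olfr197), beside 4.88%, and all below for 1 (Olfr206), beside 6.2%.

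The change with occlusion was also compared between genotypes. The difference of the changes, KO minus WT, passed for 0 of 31 members and 0% of OR genes (limma), and 1 member, Olfr198, had an unadjusted p under 0.05, beside 3.35% of OR genes. For Olfr204 the difference was -0.04, with a 95% interval from -0.39 to 0.32, and for Olfr206 it was -0.12, from -0.43 to 0.18. Intervals of this width do not show that the genotypes responded alike. The WT and KO changes come from separate arrays, and 18 members had an estimate above 0 in WT (51.9% of OR genes) and 14 in KO (56.4%).

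**Figure D5:**
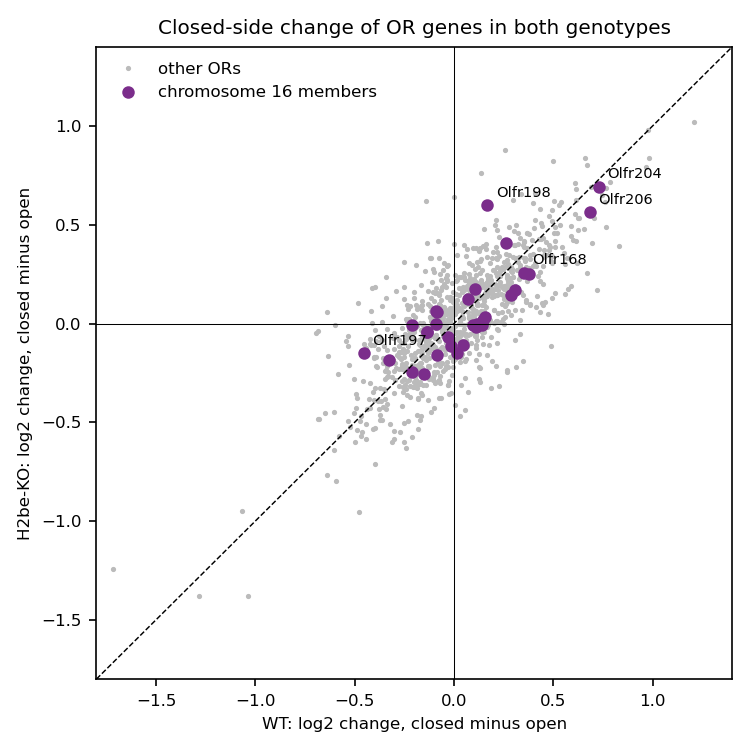
The plot sets the log2 change, closed minus open, in WT (x axis) against that in H2be-KO (y axis) for the 984 OR genes above the limit for low values, with the 31 chromosome 16 members in purple, the others in grey and the dashed line marking equal changes. Olfr204 and Olfr206 lie near the line, at 0.73 and 0.69 and at 0.68 and 0.56, while Olfr198 lies above it, at 0.17 and 0.60.

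Genes of OR signalling and OR choice were read from a list fixed for this purpose, chosen with earlier results of these data known. Of 29 tested, 9 rose on the closed side on average and 0 fell (limma, adjusted over all probe sets), beside 1.66% and 1.23% of all probe sets. In WT alone Arrb2 fell, by -0.42 ± 0.08 (SE, limma, adjusted p = 0.044), beside -0.06 ± 0.08 in KO. Its averaged change of -0.24 ± 0.06 did not pass (adjusted p = 0.057). Cnga4 and Cngb1, subunits of the cyclic nucleotide-gated channel, rose by 0.40 ± 0.05 (SE) and 0.38 ± 0.06. Adcy3, the adenylyl cyclase of OSN cilia, rose by 0.29 ± 0.05, and Pde4a, which degrades cyclic AMP, by 0.57 ± 0.06. Rtp1 and Reep1, which aid the transport of receptors to the membrane, rose by 0.27 ± 0.05 and 0.28 ± 0.06. Lhx2, a homeodomain factor of OR choice, had a value of 0.02 ± 0.06, and Atf5, a factor of the feedback that follows OR expression, one of 0.0001 ± 0.06. Other regulators of OR choice lay farther from 0 without passing, among them Ebf4 (0.21 ± 0.06, adjusted p = 0.075), the kinase gene Eif2ak3 (-0.17 ± 0.07, adjusted p = 0.26) and the demethylase gene Kdm1a (-0.15 ± 0.07, adjusted p = 0.37).

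Markers of the cells that express ORs also include many of these signalling genes: 10 of the 13 mature OSN markers are in the list above, and 7 of the 9 genes that rose there are counted again here. All 13 mature OSN markers were read well above the limit for low values, with 10.07 as the lowest mean. Of 13 mature OSN markers, 8 rose on average and 1 (Slc17a6) fell, and their summed level was 15.01 to 15.04 in WT open and 15.15 to 15.24 in WT closed arrays, and 15.00 to 15.08 against 15.23 in KO. Omp, which OSNs express once mature, gave an averaged difference of 0.03 ± 0.05 (SE, limma, adjusted p = 0.91). Of 9 immature OSN markers, 0 rose and 6 fell, among them Gap43 (-0.28 ± 0.06) and Gng8 (-0.42 ± 0.06), and the summed level was 13.56 to 13.58 in WT open and 13.30 to 13.38 in WT closed arrays, and 13.50 to 13.61 against 13.34 to 13.36 in KO. Of 8 basal cell and progenitor markers 1 fell (Neurod1, by 0.27 on the log2 scale), with summed levels of 11.67 to 11.81 in WT open and 11.52 to 11.74 in WT closed arrays, and 11.68 to 11.88 against 11.50 to 11.63 in KO. Of 7 sustentacular, 6 respiratory and 5 immune markers 0 passed in either direction. The part of these shifts in the rises of Olfr204, Olfr206, Olfr198 and Olfr168 was not tested.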

How the data were processed

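Gene expression was profiled in 12 samples of MOE tissue on Affymetrix Mouse Gene ST arrays, 3 for each genotype and side. The authors summarised and normalised the arrays with IterPLIER and sketch-quantile normalisation in Affymetrix Expression Console, and the deposited values are log2 expression, 1 per probe set and array, with 0 missing. Quantile normalisation removes differences in overall intensity between arrays, so changes are relative to all probe sets. Depth has no meaning for arrays, and their number limits the precision. No 2 arrays were identical.

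Of 35556 probe sets, 2941 averaged 5 or less on the log2 scale and were left out. The other 32615 entered limma 3.58.1 (lmFit, eBayes, R 4.3.3), with 1 coefficient for each of the 4 groups. Tests were two-sided, adjusted by Benjamini-Hochberg over all tested probe sets with a threshold of 0.05. A second adjustment, after the study's methods, ran over 984 OR genes. The code of the fit was checked on simulated data, and no result here rests on that check. The 6 contrasts compared sides in each genotype and on average, genotypes on each side, and the effect of UNO between genotypes. Error values after ± are standard errors. P-values measure the spread between pooled samples.

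Values by array were given for members called by either adjustment, the 3 largest rises and falls not called, the 2 highest and 2 lowest levels, and the 2 smallest changes. Other members were named beside them after their values were seen. Members and gene lists were chosen with earlier results of these data known. Summed levels of markers are the log2 of the sum of the linear values. Sequences are RefSeq's (GRCm38.p6), and the files give no genome coordinates. Plots were made in matplotlib 3.10.9 (Python 3.11.15).

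Alternatives were other limits for low values, median centring or quantile normalisation of the deposited values, array weights, and the limma trend and robust options. Others were fits of only the groups compared, a replicate block, the adjustment over OR genes, another choice of probe set and leaving out each array. Since each member had a single probe set, the choice of probe set could not alter the values of the members.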

Additional observations from a re-analysis of the deposited data

How the results depend on the processing

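With only the 2 groups compared in the fit, 0 members were called in WT and 0 in KO, in place of 2 and 3. With the replicate number as a block, 1 was called in WT, 1 in KO (Olfr204 in each) and 2 on average (Olfr204 and Olfr206), in place of 4. In that fit Olfr206 reached adjusted p = 0.057 in WT and 0.084 in KO (limma). Olfr198 reached 0.081 in KO and 0.05003 on average, and Olfr168 reached 0.076 on average. Same-numbered open and closed arrays deviated together with correlations of -0.009 to 0.17 in WT and 0.026 to 0.23 in KO. Differently numbered ones gave -0.11 to 0.074 in WT and -0.19 to 0.13 in KO. Same-numbered WT and KO arrays, which come from different mice, gave 0.066 to 0.16 on the open side and 0.043 to 0.18 on the closed side. Whether the numbers pair mice or mark something else that arrays share was not tested, and the main fit held no replicate block. Adjustment over OR genes gave 7 on average. With 1 array left out, calls ran from 1 to 2 in WT, 0 to 3 in KO and 2 to 4 on average, and from 0 to 0 between genotypes and for the difference of changes. The median change ran from -0.016 to 0.088 in WT and from -0.066 to 0.042 in KO. The averaged changes of Olfr178 and Olfr172, near 0, turned sign and ran from -0.11 to 0.087 and from -0.090 to 0.0085. The trend and robust options ended the calls of Olfr198 (adjusted p = 0.083 in KO and 0.082 on average). They gave a WT call for Olfr168 (0.0089) and averaged calls for Olfr167 and Olfr190 (0.012 and 0.044), as did a limit of 7 for low values (0.032 and 0.048), at which Olfr198 was not tested. The cause was not tested. All other alternatives kept each count of calls within 1.5 times. Signal above background limits Olfr178 most, whose arrays read as low as 4.63.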
